A study of Xenopus laevis with 12 samples.

Results

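The arrays compared here ask what kctd15 mRNA changes in animal caps that wnt3a and chordin mRNAs have turned towards neural crest. They are 6 of the 12 arrays of the series: 3 of Xenopus laevis caps labelled as injected with wnt3a and chordin (wnt3a+chordin), and 3 of caps labelled as injected with wnt3a, chordin and kctd15 (wnt3a+chordin+kctd15), chosen by their sample titles alone. The animal cap is the ectoderm cut from the top of the blastula, which forms epidermis when left alone. All mRNAs went into the animal pole at the 2-cell stage, caps were cut at stage 9, and RNA was taken at stage 15 and read on an Affymetrix array. The other 6 arrays are 3 of caps labelled lacZ, the control mRNA, and 3 labelled kctd15. They serve as the background described further on. They also enter the fit of all 12 arrays, so their spread is part of each SE and adjusted p below. No strain, dose or number of pooled caps is given in the sources used here, and it is not stated whether a replicate stands for its own batch of embryos, so p-values measure only the spread between these samples.

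Neural crest forms at the edge of the neural plate where BMP signalling is reduced and Wnt signalling is high, which is why a Wnt ligand together with chordin, a secreted antagonist of BMP, brings out crest genes in caps. Transcription factors of the border (Pax3, Zic1, Msx1, the AP-2 family and Dlx factors) act before those that specify crest (Snai2, FoxD3 and the SoxE factors Sox8, Sox9 and Sox10). Kctd15 is a small protein with a BTB domain that restricts crest formation in frog and fish embryos. It binds AP-2 and inhibits its activity as a transcription factor.

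The wnt3a+chordin caps carried the markers of the state they are named for. Against lacZ caps, 8 of 9 measured crest markers were called higher, the exception being snai2.S, and so were 7 of 7 neural plate markers, while 6 of 7 epidermis markers and 6 of 6 markers of ionocytes and multiciliated cells were called lower. A probe set was called where limma's adjusted p was under 0.05, and 41.3% of all tested probe sets were called in that comparison. The injected wnt3a was visible at wnt3a.S, which stood at 5.90 ± 0.63 (SD, n = 3) in lacZ caps and at 12.83, 12.97 and 12.47 on the log2 scale in the wnt3a+chordin arrays and 12.90, 12.85 and 12.02 in the wnt3a+chordin+kctd15 arrays. The probe set of chrd.1.S read 8.50, 10.20 and 10.38 without kctd15 and 8.84, 11.14 and 8.87 with it. Wnt3a.S and chrd.1.S thus overlapped between the compared groups, with differences of -0.17 (SE 0.38) and -0.08 (SE 1.55). In the background arrays chrd.1.S read 4.08, 3.79 and 9.37 in lacZ caps and 5.23, 4.48 and 9.08 in kctd15 caps. Replicate 3 of both thus lay within the wnt3a+chordin range. Chrd.1.S was not called between wnt3a+chordin and lacZ caps (difference 3.95, SE 1.55, limma adjusted p = 0.0652). The cause was not tested, and these arrays enter the fit of all 12.

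The probe set of the gene on which the comparison turns went against its label. For kctd15.L (4L, 61810114 to 61840321, Xenopus laevis assembly 10.1) the log2 values were 10.99, 10.22 and 10.78 in wnt3a+chordin arrays and 3.52, 6.77 and 5.18 in the arrays labelled as having received kctd15. The groups did not overlap, and the value was lower in the latter (difference -5.50, SE 0.80, limma adjusted p = 0.0156). The same probe set stood at 10.96 ± 0.26 (SD, n = 3) in lacZ caps and at 4.79 ± 1.43 in caps labelled kctd15. The position of its probes on the transcript is not given in the sources used here, so this probe set does not check the label, and every direction below is for the arrays labelled wnt3a+chordin+kctd15. A reporter probe set for the bacterial lac operon also set the group apart: it read 13.88, 14.43 and 13.55 in wnt3a+chordin arrays, 5.09, 5.13 and 4.67 in wnt3a+chordin+kctd15 arrays, and averaged 14.24 in lacZ and 13.53 in kctd15 caps. The other lac operon probe sets showed no such gap. They averaged 6.68, 3.99 and 4.20 in wnt3a+chordin arrays and 6.47, 4.01 and 3.75 in wnt3a+chordin+kctd15 arrays. In lacZ caps they averaged 6.39, 3.92 and 4.18. They were thus low in caps labelled with that mRNA too, and cannot show whether the groups differ in it. The labels name lacZ mRNA for the lacZ group only. Whether the gap at the first probe set is a difference in lacZ mRNA was not tested. An effect of kctd15 and one of such a difference cannot be told apart here, nor in the interaction described further on.

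The 6 arrays were alike, with Pearson correlations across probe sets of 0.9709 to 0.9816 within the groups and 0.9618 to 0.9873 between them. The arrays of each group differed in muscle genes. The mean log2 level over 37 somitic muscle probe sets was 4.87, 6.06 and 5.98 in wnt3a+chordin replicates 1, 2 and 3, and 4.85, 6.82 and 5.41 in wnt3a+chordin+kctd15. Replicate 1 was thus low in both groups, and wnt3a+chordin+kctd15 replicate 2 was the highest of the 6. Some results below are also given without wnt3a+chordin replicate 1 and wnt3a+chordin+kctd15 replicate 2. That choice keeps the low array of the second group and moves the median difference of the muscle list from 0.004 to -0.39, so counts without replicate 1 of both groups, where it was 0.04, are given as well. The part of muscle in the results was not tested further. In whole caps, fewer cells of a type and less RNA per cell cannot be told apart.

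Of 32475 probe sets tested, 210 (0.647%) were called between wnt3a+chordin+kctd15 and wnt3a+chordin caps. The calls were mostly lower: 164 (0.505%) were lower and 46 (0.142%) were higher. Among the lower ones 139 differed by 2-fold or more, that is by at least 1 on the log2 scale, with a median difference of -1.67, and among the higher ones 33 did, with a median of 1.38. By size alone, called or not, the directions were nearly even. Of 11303 genes on 1 probe set each, 154 (1.36%) lay at -1 or below and 144 (1.27%) at 1 or above. In all 210 the 3 arrays of each group did not overlap, which held for 9.53% of all probe sets. Calls made on these same arrays favour such separation, so it adds no support to them. Of the 210, 116 had 1 gene symbol and belonged to 100 genes, and 94 had none or several, among them 22 higher by up to 4.36 and 72 lower, with differences down to -3.78.

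How many probe sets passed depended on the arrays used. Fitted on the 6 compared arrays alone, without the lacZ and kctd15 caps, the count was 49, with 3 higher and 46 lower. With the replicate number as a block the count was 443 (152 higher and 291 lower, 1.36%), and 208 of the 210 stayed called. Leaving out wnt3a+chordin replicate 1 and wnt3a+chordin+kctd15 replicate 2 gave 122, with 58 higher and 64 lower. Leaving out replicate 1 of both groups gave 40, with 10 higher and 30 lower (limma, 1520 at an unadjusted p under 0.05). Without a single array the count ran from 67 to 200: it was 70 without wnt3a+chordin replicate 1, 67 without wnt3a+chordin replicate 3, 75 without wnt3a+chordin+kctd15 replicate 1 and 120 without wnt3a+chordin+kctd15 replicate 3. In 48 of the 210 the call held with each of the 6 arrays left out in turn. Of the 36 called genes in the named set, 6 kept their call in this way, 13 did without wnt3a+chordin replicate 1 and wnt3a+chordin+kctd15 replicate 2, and 5 did without replicate 1 of both groups. In both of these fits all 36 kept their direction.

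**Figure D1:**
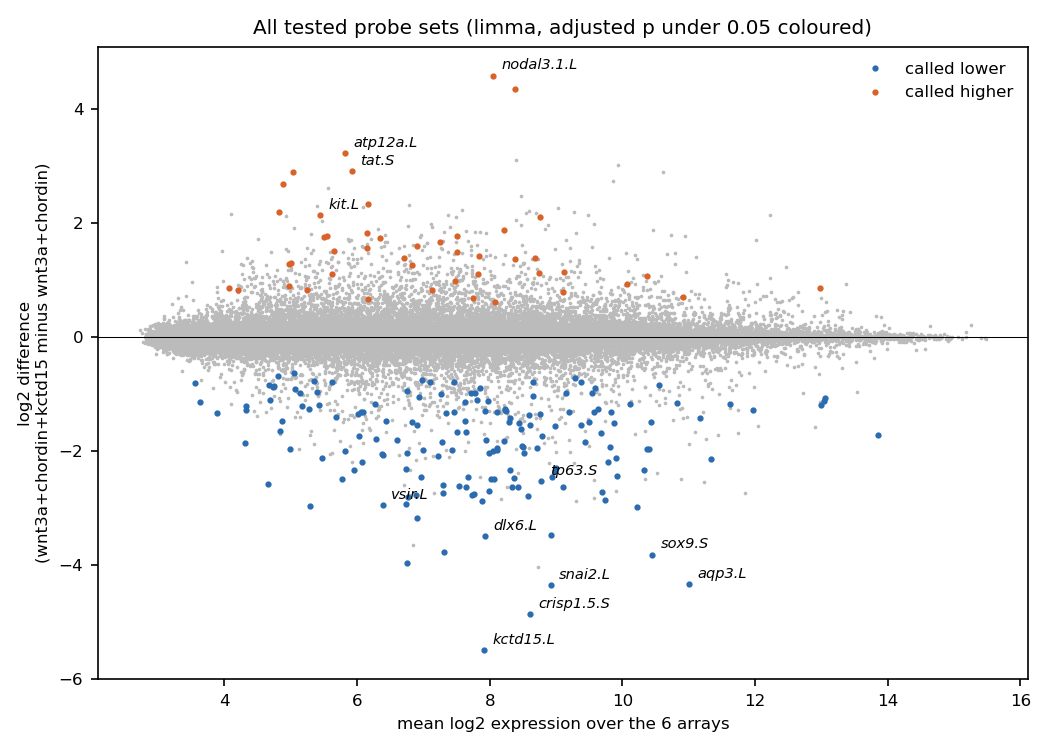
Each point is 1 of the 32475 tested probe sets, with its mean log2 expression over the 6 arrays on the horizontal axis and the log2 difference, wnt3a+chordin+kctd15 minus wnt3a+chordin, on the vertical axis. The 164 probe sets called lower (blue) reach -5.50 at kctd15.L, and the 46 called higher (orange) reach 4.58 at nodal3.1.L.

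Of the 28 gene lists described here, neural crest had the lowest median. Counted on 1 probe set per gene, 5 of 25 measured members of the neural crest list were lower and 1 was higher, while over all 11303 genes 0.549% were lower and 0.203% were higher. The median difference of the list was -1.12, against 0.007 over all genes, and 13 of the 25 lay at -1 or below, a size that 154 of the 11303 genes (1.36%) reached. At an unadjusted p under 0.05 (limma), 14 of the 25 were lower and 3 were higher. Over all tested probe sets 2110 of 32475 passed that threshold, the background for the unadjusted counts of the lists below. The members called lower were snai2.L, sox9.S, sox9.L, ets1.L and ednra.S, and the member called higher was kit.L. Without wnt3a+chordin replicate 1 and wnt3a+chordin+kctd15 replicate 2, 0 of these stayed called lower (limma), 1 stayed higher and the median was -0.57. Without replicate 1 of both groups 0 of the 25 were called (limma), and the median was -0.72. By replicate number the list median was -1.42, -0.86 and -0.26 in replicates 1, 2 and 3. With each single array left out, between 1 and 6 members were called lower, and the median lay between -1.42 and -0.79. The shares over all genes apply to the lists below as well. Beside them, 0 or 1 call in a list is not read as a result about the list as a whole.

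Among the SoxE factors, which keep crest cells multipotent and later direct their cartilage and glial fates, both homeologs of sox9 fell. For sox9.S (9_10S, 19840590 to 19846183) the log2 values were 12.57, 12.11 and 12.398 in wnt3a+chordin arrays and 7.80, 8.00 and 9.81 in wnt3a+chordin+kctd15 arrays. The groups were far apart, at a difference of -3.82 (SE 0.68, limma adjusted p = 0.0369). For sox9.L (9_10L, 21853266 to 21875574) they were 10.63, 10.30 and 10.35 against 7.82, 7.62 and 7.92, a difference of -2.64 (SE 0.43, limma adjusted p = 0.0239). The wnt3a+chordin+kctd15 means, 8.54 for sox9.S and 7.79 for sox9.L, stood above the lacZ means of 6.67 ± 1.45 and 5.54 ± 1.11 (SD, n = 3), a comparison that was not tested. The size of the sox9.L difference hardly moved when any of the 6 arrays was left out (-2.71 to -2.53), although its limma adjusted p then ran from 0.054 to 0.107.

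Sox8.L and sox10.L had lower means as well, and 1 probe set of sox8.L was called. The probe set of sox8.L with the higher mean read 12.92, 12.18 and 12.42 against 9.38, 9.15 and 11.34, groups that did not overlap, with a difference of -2.55 (SE 0.52) that missed the threshold (limma adjusted p = 0.0663, and 0.0308 with the block). A further probe set of sox8.L was called, at -2.44 (SE 0.44, limma adjusted p = 0.038). For sox10.L the values were 10.69, 7.03 and 8.26 against 3.48, 3.69 and 7.86. Here replicate 3 of the wnt3a+chordin+kctd15 caps overlapped the other group, and the difference of -3.65 (SE 1.12) was not called (limma adjusted p = 0.328).

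Snai2, the zinc finger repressor that marks premigratory crest and acts in epithelial-mesenchymal transition, gave the widest difference of the list. For snai2.L (6L, 121146981 to 121151491) the values were 11.71, 10.25 and 11.34 in wnt3a+chordin arrays and 4.86, 6.44 and 8.91 in wnt3a+chordin+kctd15 arrays, a difference of -4.36 (SE 0.81, limma adjusted p = 0.0457). The groups did not overlap, but replicate 3 of the latter group sat well above its fellows, as it did for sox9.S, sox8.L and sox10.L. The call held with 1 of the 6 arrays left out and was lost with the other 5, where the difference stayed between -5.45 and -3.42. Its homeolog snai2.S differed by -1.87 (SE 0.61, limma adjusted p = 0.389). The related snai1.S differed by -1.29 (SE 0.53, limma adjusted p = 0.67).

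The other crest specifiers lay lower with wide errors. Foxd3, a forkhead repressor needed for crest progenitors, differed by -2.39 (SE 0.66) at foxd3.L and -2.50 (SE 0.75) at foxd3.S, and neither was called (limma adjusted p = 0.234 and 0.309), although the groups did not overlap at either. The basic helix-loop-helix factor twist1.L differed by -1.68 (SE 0.41, limma adjusted p = 0.144). Ets1.L (7L, 74668296 to 74708813), an ETS factor of cranial and cardiac crest, read 10.27, 9.06 and 9.92 against 6.35, 6.69 and 8.31. Its difference was -2.64 (SE 0.48, limma adjusted p = 0.0399), and it was the 1 named gene whose call was lost with the replicate block (0.0532, within a range of 0.00842 to 0.79 over all alternatives). Its 2 further probe sets differed by -2.77 and -0.39 and were not called. In lacZ caps ets1.L stood at 9.65 ± 0.47 (SD, n = 3), close to its wnt3a+chordin mean of 9.75 (difference 0.10, SE 0.48, limma adjusted p = 0.897). Its wnt3a+chordin+kctd15 mean of 7.11 was thus below the lacZ level too, a comparison that was not tested. Ets1.S differed by -0.93 (SE 0.39, limma adjusted p = 0.69).

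Among receptor genes, ednra.S and 1 probe set of pdgfra.L were called lower, and kit.L was called higher. Ednra.S, the endothelin receptor that patterns crest of the jaw, read 8.40, 8.50 and 8.57 in wnt3a+chordin arrays and 6.50, 6.75 and 7.17 in wnt3a+chordin+kctd15 arrays. Its difference of -1.68 (SE 0.21, limma adjusted p = 0.00698) held with each of the 6 arrays left out (0.00724 to 0.0352), and its homeolog ednra.L, dim at about 4 in all 6 arrays, differed by -0.01. Pdgfra.L, the receptor for platelet-derived growth factor in crest and mesoderm, had 1 probe set called at -2.74 (SE 0.42, limma adjusted p = 0.0194) and 1 that was not, at -1.84 (SE 0.38, limma adjusted p = 0.067, and 0.0151 with the block). Kit.L (1L, 41926234 to 41958985), a receptor tyrosine kinase known for its part in pigment cells, rose: its values were 4.34, 4.45 and 4.34 against 6.83, 5.61 and 7.10, a difference of 2.14 (SE 0.31, limma adjusted p = 0.0149). Kit.S differed by 1.41 (SE 0.31), which missed the threshold (limma adjusted p = 0.0923, and 0.0174 with the block) and was also called without wnt3a+chordin+kctd15 replicate 2. In lacZ caps kit.L stood at 9.16 ± 0.17 (SD, n = 3), above both groups. It was thus lower in wnt3a+chordin than in lacZ caps (difference -4.78, SE 0.31, limma adjusted p = 2.39e-06), unlike most of the crest markers.

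At the neural plate border 3 of 23 list members were lower and 0 were higher (limma, 0 at an unadjusted p under 0.05), with a median of -0.25. The 3 were Dlx homeobox genes, which mark the border and the non-neural ectoderm beside it. Without wnt3a+chordin replicate 1 and wnt3a+chordin+kctd15 replicate 2 0 of the 23 were called (limma), and the 3 differences were then -2.64, -1.27 and -1.44. Without replicate 1 of both groups 1 was called. With each single array left out, 0 to 3 members were called, with 0 without wnt3a+chordin replicate 1 and 0 without wnt3a+chordin replicate 3.

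Dlx6.L (6L, 33867560 to 33872632) read 10.67, 8.96 and 9.42 in wnt3a+chordin arrays and 7.01, 5.43 and 6.09 in wnt3a+chordin+kctd15 arrays, a difference of -3.50 (SE 0.51, limma adjusted p = 0.0161). Its neighbour dlx5.L (6L, 33882698 to 33887832) read 10.03, 9.41 and 9.87 against 8.31, 7.87 and 8.43, a difference of -1.56 (SE 0.21, limma adjusted p = 0.0121). Dlx3.L (9_10L, 4802984 to 4811225) read 10.91, 10.22 and 10.76 against 8.85, 9.26 and 9.26, a difference of -1.51 (SE 0.21, limma adjusted p = 0.014). In all 3 genes the groups were separate, as in every called probe set, and the errors were small beside the difference. The homeologs dlx6.S and dlx3.S differed by -2.49 (SE 0.64) and -0.84 (SE 0.31) and were not called (limma adjusted p = 0.18 and 0.526), the former being called with the block (0.0329).

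The border factors named first in textbooks gave small differences. Pax3.L differed by 0.06 (SE 0.31), pax3.S by -0.25 (SE 0.67), zic1.S by 0.21 (SE 0.73), msx1.L by -0.14 (SE 0.23) and msx2.L by -0.26 (SE 0.19). The AP-2 factors, the binding partners of Kctd15, differed by -0.58 (SE 0.36) at tfap2a.L, -0.75 (SE 0.40) at tfap2a.S, -1.14 (SE 0.57) at tfap2b.L and -1.12 (SE 0.33) at tfap2e.L. None of these 9 was called, and overlapping arrays were seen in each. Of the 7 measured members of the AP-2 and Kctd list, kctd15.L alone was called, and the list's median was -0.75. Over the 3 replicate numbers the median difference was -0.58, -1.55 and 0.08.

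**Figure D2:**
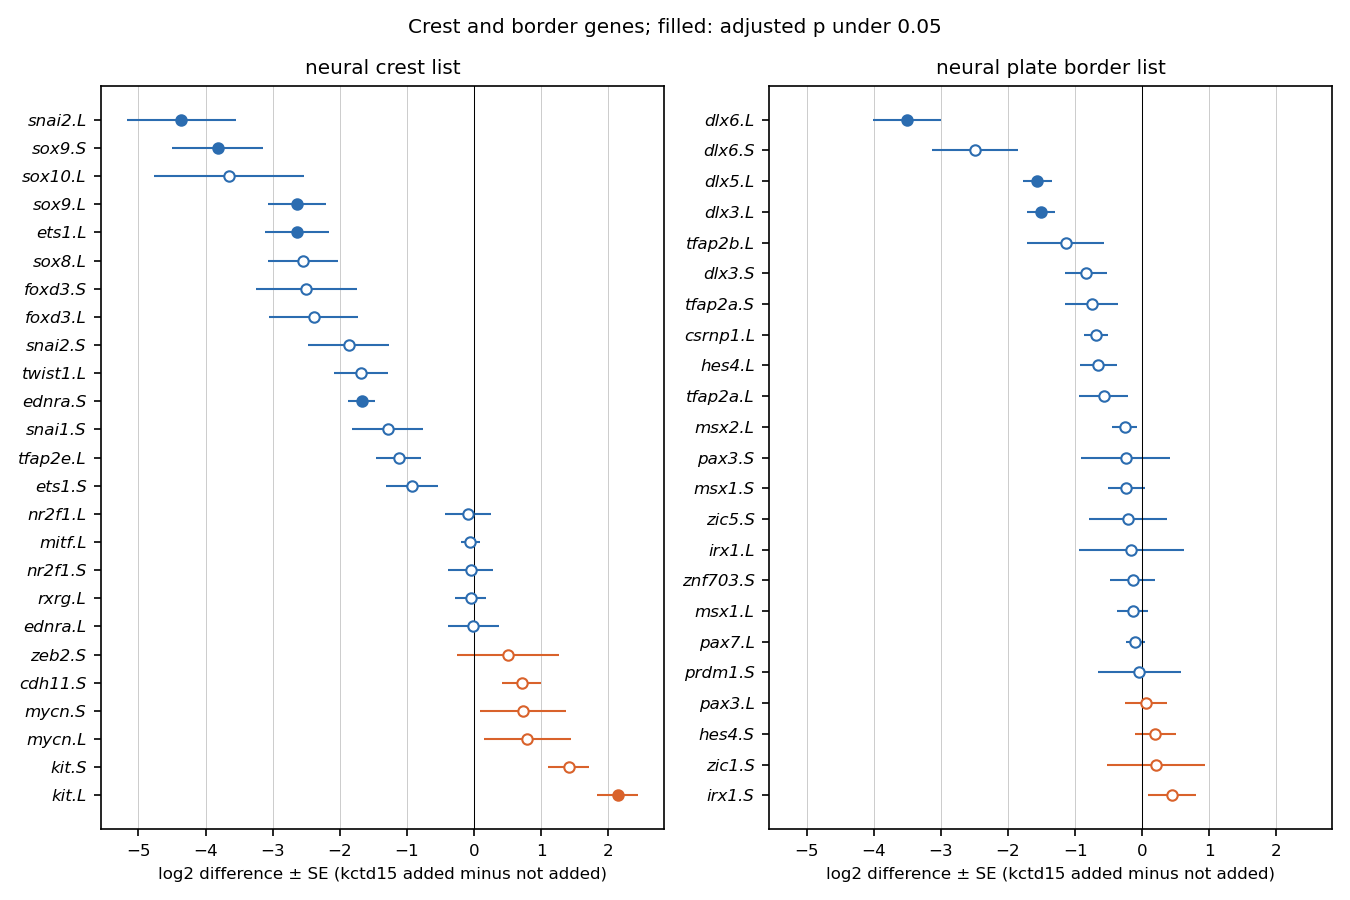
Log2 difference, wnt3a+chordin+kctd15 minus wnt3a+chordin, with its standard error, for the 25 measured members of the neural crest list (left) and the 23 of the neural plate border list (right), 1 probe set per gene. Filled points are called; snai2.L at -4.36 and kit.L at 2.14 are the ends of the crest list, while the border list runs from -3.50 at dlx6.L to 0.45.

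Of 34 measured members of the epidermis list 2 were lower and 0 were higher (limma, 1 at an unadjusted p under 0.05), with a median of -0.15, and both called members were homeologs of tp63, the p53 relative that keeps basal epidermal cells proliferating. Tp63.L (5L, 110818110 to 110861292) read 9.48, 9.22 and 9.29 in wnt3a+chordin arrays and 6.04, 6.73 and 6.55 in wnt3a+chordin+kctd15 arrays, a difference of -2.89 (SE 0.43, limma adjusted p = 0.0178). Tp63.S (5S, 89257441 to 89347165) read 10.21, 9.86 and 10.07 against 7.41, 7.64 and 7.49, a difference of -2.53 (SE 0.35, limma adjusted p = 0.0137). The arrays of each group agreed closely in both genes. Without wnt3a+chordin replicate 1 and wnt3a+chordin+kctd15 replicate 2 the differences were -2.96 and -2.52, of like size, with limma adjusted p of 0.0865 and 0.083 on 2 arrays per group.

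Differentiated epidermal genes varied widely between arrays of a group. Itln1.L, a lectin secreted by larval goblet cells, read 10.22, 4.66 and 10.61 in wnt3a+chordin arrays and 8.65, 13.12 and 11.92 in wnt3a+chordin+kctd15 arrays. The keratin krt12.4.S read 11.21, 5.47 and 10.70 against 7.37, 12.43 and 10.53. Replicate 2 was thus the lowest array of the first group and the highest of the second in both genes, and neither was called (limma adjusted p = 0.936 and 1.0). The list's median difference was -0.82, 0.46 and -0.16 in replicates 1, 2 and 3. Krt8.1.S, a simple-epithelium keratin outside the named set and chosen here after its values were seen, was lower at 2 of its 3 probe sets (differences -1.13 and -1.08, limma adjusted p = 0.0459 and 0.0333). The third differed by -0.87 (limma adjusted p = 0.0567).

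Ionocytes, multiciliated cells and small secretory cells are the scattered cell types of the larval skin. Of their 35 measured genes 32 lay above 0, but 0 were called in either direction (limma, with 0 lower and 3 higher at an unadjusted p under 0.05), and the median was 0.51. It was 1.70 in replicate 2, against 0.03 and 0.07 in replicates 1 and 3. The mean log2 level over the 35 was 5.36, 5.40 and 5.39 in wnt3a+chordin arrays and 5.37, 7.44 and 5.51 in wnt3a+chordin+kctd15 arrays. In foxi1.L, the forkhead factor that specifies ionocytes, the values were 4.43, 4.13 and 4.20 against 4.10, 8.98 and 6.55. The proton pump subunit atp6v1g3.L read 4.25, 4.23 and 4.29 against 5.54, 9.00 and 6.06, without overlap, at a difference of 2.61 (SE 0.68, limma adjusted p = 0.195). Without wnt3a+chordin replicate 1 and wnt3a+chordin+kctd15 replicate 2, 1 member of the list was called and the median was 0.10. Without replicate 1 of both groups 0 were called (limma) and the median was 0.71.

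The list of the cement gland, a mucus-secreting organ of the head, and the hatching gland held 6 measured members with a median of 0.34, of which 0 were called (limma, 1 higher and 0 lower at an unadjusted p under 0.05). Agr2.S, an anterior gradient gene of the cement gland, read 6.14, 4.68 and 5.26 in wnt3a+chordin arrays and 7.26, 6.68 and 7.29 in wnt3a+chordin+kctd15 arrays. Its difference of 1.72 (SE 0.35) missed the threshold (limma adjusted p = 0.0651). It was called with the block (0.0151), without wnt3a+chordin replicate 1 (0.0292) and without that array and wnt3a+chordin+kctd15 replicate 2 (0.023).

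Genes of the neural plate, which chordin brings out in caps, gave no call, where 0.752% of all genes were called. Of 24 pan-neural members 0 were called (limma, 1 higher and 0 lower at an unadjusted p under 0.05), with a median of 0.31 and replicate medians of 0.48, 0.43 and -0.01. Sox2.L, a SoxB1 factor of neural progenitors, read 11.79, 12.57 and 12.38 against 13.00, 13.28 and 12.84. The arrays did not overlap, but the difference of 0.79 (SE 0.83) was within the error of the 4-group fit (limma adjusted p = 1.0). That error includes the lacZ and kctd15 caps, where the SD of sox2.L was 1.84 and 1.33. In wnt3a+chordin and wnt3a+chordin+kctd15 caps it was 0.41 and 0.22. The mean level of the pan-neural list was 6.63, 6.90 and 8.36 in lacZ replicates 1, 2 and 3. Irx3.L, an Iroquois homeobox gene, differed by 1.29 (SE 0.55, limma adjusted p = 0.695).

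Regional neural lists also gave few calls. Of 24 anterior members 0 were called (limma, 0 at an unadjusted p under 0.05), with a median of -0.10, and of 34 members for midbrain, hindbrain and posterior neural tube 0 were called (1 lower and 1 higher at an unadjusted p under 0.05), with a median of 0.19. Hoxb4.S, a Hox gene of the hindbrain and spinal cord, read 7.99, 8.91 and 9.18 against 9.59, 9.69 and 10.55, a difference of 1.24 (SE 0.48, limma adjusted p = 0.565). In the neuronal differentiation list 1 of 28 was lower. It was tlx3.S, a homeobox gene of sensory neurons, with 5.66, 5.48 and 5.40 against 4.50, 4.51 and 4.80, a difference of -0.91 (SE 0.14, limma adjusted p = 0.0185). Of 10 cranial placode members 0 were called (limma, 1 lower and 0 higher at an unadjusted p under 0.05).

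In the organizer and axial mesoderm list 1 of 29 members was higher and 1 was lower. The former, nodal3.1.L (3L, 141478446 to 141480825), a Nodal-related ligand of the Spemann organizer known as a direct target of Wnt signalling in Xenopus, had the largest rise of any named gene. It read 5.74, 5.41 and 6.13 in wnt3a+chordin arrays and 12.24, 8.16 and 10.64 in wnt3a+chordin+kctd15 arrays. The groups were far apart at a difference of 4.58 (SE 0.75, limma adjusted p = 0.0263), with a wide spread inside the second group, and in lacZ caps the gene stood at 5.18 ± 0.19 (SD, n = 3). The call held with 2 of the 6 arrays left out (limma adjusted p 0.00051 to 0.106 over the 6). Lhx1.L, a LIM homeobox gene of the organizer, differed by 1.82 (SE 0.53) and missed the threshold (limma adjusted p = 0.289, and 0.0215 with the block).

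The member called lower was cav1.L (3L, 74726213 to 74743430), the coat protein of caveolae. It read 10.98, 10.42 and 10.58 in wnt3a+chordin arrays and 7.00, 8.18 and 6.37 in wnt3a+chordin+kctd15 arrays, a difference of -3.48 (SE 0.61, limma adjusted p = 0.034). Nodal3.2.L, a relative of nodal3.1.L, was dim, at 2.99 to 3.77 in the 6 arrays, and was not called (limma adjusted p = 0.657).

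Mesoderm and muscle gave 0 calls on 1 probe set per gene. In the mesoderm list 0 of 44 were called (limma, 2 lower and 3 higher at an unadjusted p under 0.05), and its median was 0.02. With the block 1 was lower, pdgfra.L, whose further probe set was called lower without the block too, as given above. In the somitic muscle list 0 of 37 were called (limma, 0 lower and 1 higher at an unadjusted p under 0.05), with replicate medians of -0.01, 0.77 and -0.36. The cardiac actin gene actc1.L, the usual sign of muscle in caps, read 5.32, 10.45 and 10.45 in wnt3a+chordin arrays and 5.72, 11.90 and 9.10 in wnt3a+chordin+kctd15 arrays. It was low in replicate 1 of both groups, and the groups overlapped over their whole range. Of 20 endoderm members 0 were called (limma, 0 lower and 1 higher at an unadjusted p under 0.05); gata6.L, a zinc finger factor of endoderm and heart, differed by 1.46 (SE 0.33) and missed the threshold (limma adjusted p = 0.104). It was called with the block (0.0343) and without wnt3a+chordin+kctd15 replicate 2 (0.0476).

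Genes that answer to Wnt signalling gave 1 call. Of 39 listed Wnt targets, nodal3.1.L was higher and 0 were lower (limma, 2 at an unadjusted p under 0.05), with a median of 0.18. With the block 1 target was lower, the cell surface receptor cd44.L (-1.71, SE 0.40, limma adjusted p = 0.12, and 0.0248 with the block). The feedback inhibitor axin2.S read 13.00, 12.96 and 13.05 in wnt3a+chordin arrays and 13.12, 12.73 and 13.21 in wnt3a+chordin+kctd15 arrays, and the zinc finger target sp5.L differed by 0.46 (SE 0.48). These values overlapped. Of 42 Wnt ligands, receptors and antagonists 0 were called (limma, 4 lower and 2 higher at an unadjusted p under 0.05). The BMP target list had 1 of 40 lower, dlx3.L again, and its ligand bmp2.S differed by -1.96 (SE 0.46) and missed the threshold (limma adjusted p = 0.13, and 0.0272 with the block). Bmp7.2.L differed by 1.52 (SE 0.65), with groups that overlapped (limma adjusted p = 0.693, and 0.044 with the block).

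Other signalling lists gave single genes. In the Notch list 1 of 16 was lower: hes2.L (7L, 103532863 to 103534749), a basic helix-loop-helix repressor of the Hes family, read 8.98, 8.11 and 8.68 against 6.69, 5.02 and 6.27, a difference of -2.60 (SE 0.38, limma adjusted p = 0.0154). Of 31 members of the FGF and Erk list 0 were called (limma, 0 lower and 2 higher at an unadjusted p under 0.05). Of 22 genes of retinoic acid metabolism and its receptors 0 were called (limma, 2 lower and 2 higher at an unadjusted p under 0.05). The p53 and stress list had 0 of 34 called (limma, 4 lower and 1 higher at an unadjusted p under 0.05), and the cell cycle list 0 of 50 (limma, 0 lower and 1 higher), with medians of -0.01 and 0.09.

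**Figure D3:**
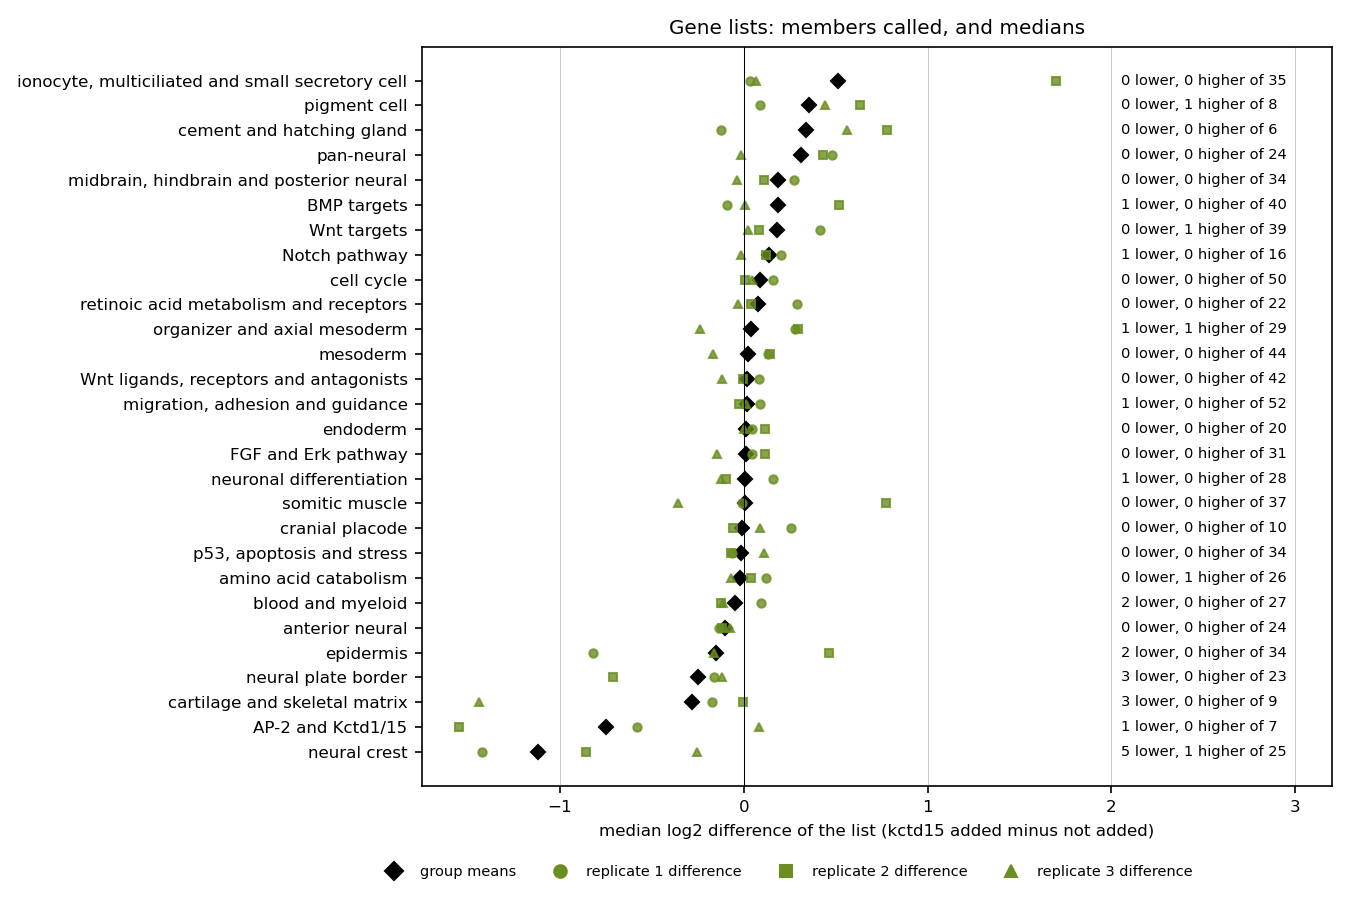
Median log2 difference, wnt3a+chordin+kctd15 minus wnt3a+chordin, of each of the 28 gene lists from the group means (black) and from each replicate number (green), with the members called lower and higher at the right. The neural crest list has the lowest median, -1.12, and the ionocyte list the highest, 0.51, with replicate 2 at 1.70.

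Outside these lists, crisp1.5.S, aqp3.L and cib2.S fell furthest among genes of the named set. Crisp1.5.S (5S, 135748944 to 135753939), of the cysteine-rich secretory proteins, read 12.00, 9.52 and 11.60 in wnt3a+chordin arrays and 6.89, 4.96 and 6.67 in wnt3a+chordin+kctd15 arrays, a difference of -4.87 (SE 0.61, limma adjusted p = 0.00785). Aqp3.L (1L, 228561354 to 228623084), a channel for water and glycerol, read 13.41, 12.94 and 13.18 against 9.37, 8.35 and 8.79, a difference of -4.34 (SE 0.71, limma adjusted p = 0.025, and 0.0545 to 0.108 with single arrays left out). Cib2.S (3S, 61605835 to 61620862), which encodes a calcium and integrin binding protein, read 9.35, 7.99 and 8.89 against 4.22, 4.28 and 5.80, a difference of -3.98 (SE 0.42, limma adjusted p = 0.00284). All 3 were low in lacZ caps, at 4.55 ± 0.16, 5.63 ± 1.87 and 4.18 ± 0.26 (SD, n = 3).

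Vsir.L (7L, 44234889 to 44277233), an immunoglobulin-family membrane protein known as an immune checkpoint in mammals, was the steadiest of the lower genes in the named set. It read 8.38, 7.77 and 7.45 in wnt3a+chordin arrays and 4.92, 4.73 and 5.10 in wnt3a+chordin+kctd15 arrays, a difference of -2.95 (SE 0.21, limma adjusted p = 0.000455). With each of the 6 arrays left out the limma adjusted p was 0.000413 to 0.00323. Enpp2.S, which encodes autotaxin, the secreted enzyme that makes lysophosphatidic acid, differed by -2.81 (SE 0.50, limma adjusted p = 0.0369). Cybb.L, the catalytic subunit of the phagocyte NADPH oxidase, differed by -2.63 (SE 0.39, limma adjusted p = 0.0185).

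The blood and myeloid list had 2 of 27 lower, cybb.L and the globin hbg1.L. Hbg1.L read 14.70, 14.98 and 14.46 against 13.55, 13.10 and 12.34, a difference of -1.72 (SE 0.29, limma adjusted p = 0.0274). A further probe set of hbg1.L differed by 0.01, so that its probe sets disagreed. The first stood at 14.76 ± 0.20 (SD, n = 3) in lacZ caps too. The blood markers hba3.L, hba1.S, gata1.L and gata1.S averaged only 4.26, 3.73, 4.60 and 4.68 in wnt3a+chordin caps. What the bright probe set detects was not tested. The cartilage and skeletal matrix list had 3 of 9 lower, which were sox9.S, sox9.L and dlx5.L, already counted among crest and border genes, while the matrix genes col2a1.L and col9a1.L differed by 0.22 and -0.28 and were not called.

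Of 52 members of the migration, adhesion and guidance list 1 was lower, itga5.S (2S, 136689443 to 136821633), the alpha subunit of the fibronectin receptor that gastrula and crest cells crawl on. It read 5.93, 5.59 and 5.83 in wnt3a+chordin arrays and 4.45, 4.59 and 4.65 in wnt3a+chordin+kctd15 arrays, a difference of -1.22 (SE 0.13, limma adjusted p = 0.00331). For its homeolog itga5.L the brightest probe set differed by -0.87 (SE 0.34, limma adjusted p = 0.587), while another was called at -1.92 (SE 0.28, limma adjusted p = 0.0156).

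Calls that held with each of the 6 arrays left out belonged to 17 genes with 1 symbol, of which 15 were lower and tat.S and slc43a1.L were higher. Over all alternatives, the highest limma adjusted p was 0.0399 for vsir.L and 0.0485 for tat.S. Each of the other genes exceeded 0.05 under some alternative, for example at 0.277 for crisp1.5.S and 0.18 for itga5.S. This set was chosen after its values were seen. Besides crisp1.5.S, cib2.S, vsir.L, ednra.S and itga5.S, it held emilin1.L, an elastin-associated glycoprotein of the extracellular matrix, lower at both of its called probe sets (differences -2.78, SE 0.22, and -2.32, SE 0.22, limma adjusted p = 0.000533 and 0.00138). It also held rasgrp1.L, an activator of Ras, at -2.50 (SE 0.22, limma adjusted p = 0.000918), and cyp46a1.2.L, a cytochrome P450, at -2.49 (SE 0.25, limma adjusted p = 0.0021). The semaphorin receptor plxnb2.S differed by -1.18 (SE 0.13, limma adjusted p = 0.00306), the nucleotide transporter slc17a9.L by -1.66 (SE 0.16, limma adjusted p = 0.00139) and the S100 protein s100a10.L by -1.27 (SE 0.12, limma adjusted p = 0.00159). Pfkfb4.S, an enzyme that sets the level of a glycolytic activator, read 9.41, 9.27 and 9.16 against 7.77, 7.84 and 8.12, a difference of -1.37 (SE 0.12, limma adjusted p = 0.000677). The others were ap4m1.S, gse1.S and hpd-like.2.L, at -1.47, -1.36 and -1.14.

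Further called genes of cell junctions and the actin cytoskeleton, also picked after their values were seen, were the desmosomal plakophilin pkp2.L (-1.74, SE 0.28, limma adjusted p = 0.0224), the tight junction claudin cldn6.1.L (-1.97, SE 0.35, 0.0364), alpha-actinin actn1.L (-1.94, SE 0.35, 0.038) and plastin pls3.L (-1.16, SE 0.18, 0.0218), whose 3 further probe sets were not called (-0.24 to -0.09). Inducible cyclooxygenase, ptgs2.S, was lower at both of its probe sets (-2.20 and -2.14). Each of these called probe sets was higher in every wnt3a+chordin array than in any wnt3a+chordin+kctd15 array. So was every probe set called lower, and calls made on these same arrays favour such separation. Klf17.L, a Krüppel-like zinc finger factor, read 10.34, 9.90 and 10.29 against 8.26, 6.58 and 8.31, a difference of -2.46 (SE 0.39, limma adjusted p = 0.0218).

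Tat.S and slc43a1.L were the risers of the named set whose call held with each of the 6 arrays left out. Tat.S (4S, 41700028 to 41732337), tyrosine aminotransferase, the first enzyme of tyrosine breakdown, read 4.37, 4.48 and 4.57 in wnt3a+chordin arrays and 7.77, 7.13 and 7.24 in wnt3a+chordin+kctd15 arrays. The difference was 2.91 (SE 0.18, limma adjusted p = 0.000332), and it stayed between 2.71 and 3.03 with each of the 6 arrays left out. Slc43a1.L (7L, 60595011 to 61097700), a transporter of large neutral amino acids, read 6.76, 6.81 and 6.30 against 8.58, 8.46 and 8.13, a difference of 1.77 (SE 0.20, limma adjusted p = 0.00405). Of the 26 measured genes of amino acid catabolism, however, tat.S alone was called, and the list's median was -0.02.

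Several risers were genes that lacZ caps held at high levels and wnt3a+chordin caps at low ones. Atp12a.L (7L, 68853131 to 68875070), a proton and potassium pump, read 4.08, 3.71 and 4.82 in wnt3a+chordin arrays and 6.28, 8.31 and 7.70 in wnt3a+chordin+kctd15 arrays, with 11.32 ± 0.35 (SD, n = 3) in lacZ caps. Its difference was 3.23 (SE 0.45, limma adjusted p = 0.0138). Sytl5.L, a synaptotagmin-like protein of vesicle traffic, rose by 1.77 (SE 0.28, limma adjusted p = 0.0213), glb1l2.S, a relative of beta-galactosidase, by 1.60 (SE 0.27, limma adjusted p = 0.0272), and aldh1l1.L, a folate enzyme, by 1.39 (SE 0.21, limma adjusted p = 0.0212). Their lacZ levels were 9.27 ± 0.21, 11.39 ± 0.23 and 12.30 ± 0.35. In each of these genes the wnt3a+chordin+kctd15 arrays lay between the wnt3a+chordin arrays and the lacZ mean.

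Further risers followed, in some of which the order differed. Hpgds.L, a prostaglandin D synthase, read 7.89, 7.97 and 7.22 against 10.21, 9.87 and 9.34, a difference of 2.11 (SE 0.35, limma adjusted p = 0.0273), and passed its lacZ level of 8.73 ± 0.63 (SD, n = 3). Kalrn.L rose by 1.88 (SE 0.25, limma adjusted p = 0.0114), with a further probe set at 0.98 that was not called. Naalad2.L, a membrane dipeptidase, rose by 1.82 (SE 0.27, limma adjusted p = 0.0184). A further probe set of naalad2.L differed by -0.10 and was not called, so that its probe sets disagreed. The growth factor igf2.S read 5.06, 4.87 and 4.74 against 6.91, 5.93 and 6.36, a difference of 1.51 (SE 0.23, limma adjusted p = 0.0212), with 3.92 ± 0.32 in lacZ caps. The rest of the named risers were cat1.L, aadacl4.S and mettl7a.L, at 1.74, 1.67 and 1.41 (limma adjusted p = 0.0484, 0.0266 and 0.0458).

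**Figure D4:**
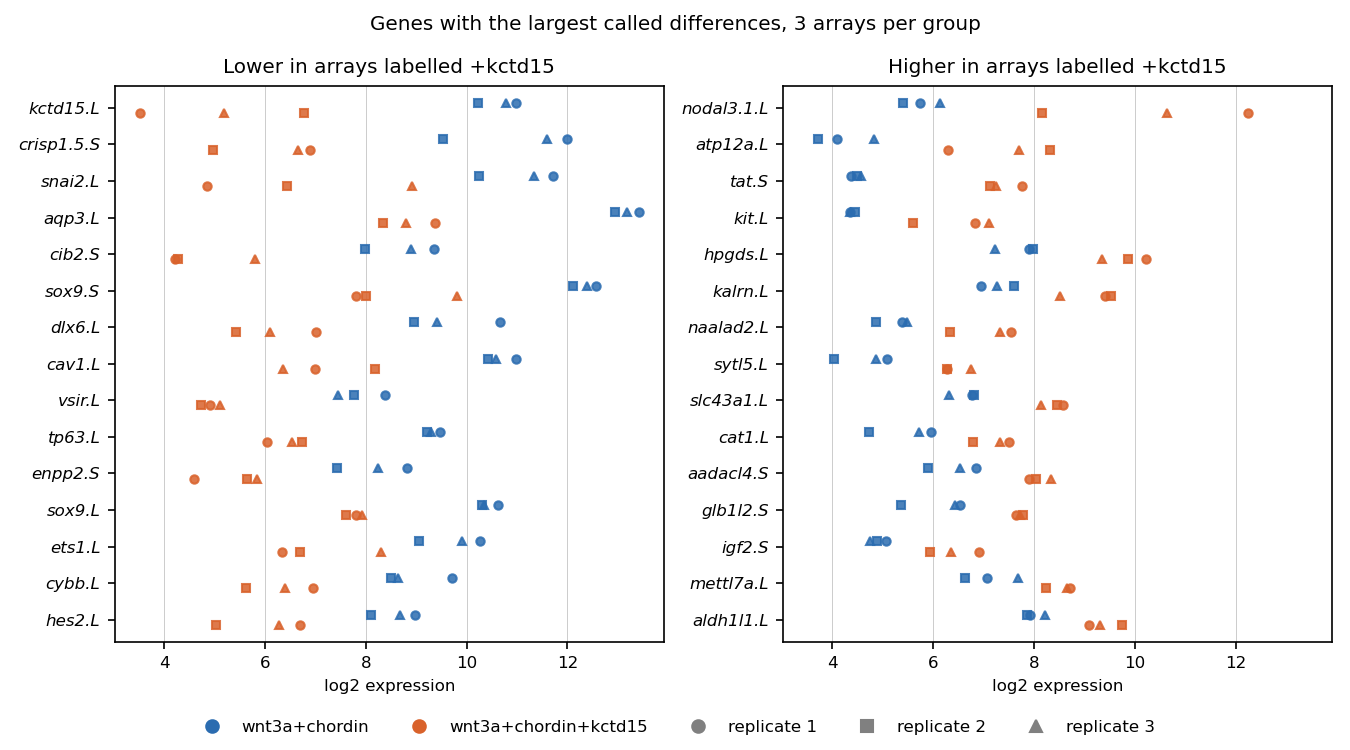
Log2 expression on each of the 6 arrays for the 15 named genes with the largest called fall (left) and the 15 with the largest called rise (right), in wnt3a+chordin (blue) and wnt3a+chordin+kctd15 (orange) caps, with a marker shape for each replicate number. Separate groups were a condition for the choice of these 30 genes. The gap is narrow in mettl7a.L, and the spread is wide in snai2.L and nodal3.1.L.

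The study's other pair of groups, kctd15 against lacZ, shares no array with this comparison and gives the effect of kctd15 in caps without wnt3a and chordin. It had 2269 called probe sets (6.99%). Of the 210 called in wnt3a+chordin caps, 94 were also called there in the same direction, 6 in the opposite direction, and 110 were not called there. The same 94 are a small share of the 2269. A difference between the effects was tested by the interaction, which subtracts kctd15 minus lacZ from wnt3a+chordin+kctd15 minus wnt3a+chordin. It was called for 371 probe sets (1.14%), of which 45 were among the 210. The 210 were chosen by a difference that enters the interaction, so the 45 are not read against that share.

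Genes that fell in both settings included tp63.L, cav1.L, enpp2.S, ets1.L, cybb.L and itga5.S. In kctd15 minus lacZ they differed by -3.83, -4.48, -3.56, -2.25, -2.24 and -1.08 (limma adjusted p = 0.000674, 0.00188, 0.0022, 0.0186, 0.0071 and 0.00115), and the interaction was not called for any of the 6. Among risers, hpgds.L, naalad2.L, slc43a1.L and tat.S were also called higher in caps without wnt3a and chordin, by 1.69, 1.59, 1.43 and 1.23. For tat.S the rise with wnt3a and chordin was the larger (interaction 1.68, SE 0.25, limma adjusted p = 0.015).

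For sox9.L and the Dlx genes the effects in the settings differed. Sox9.L differed by 0.98 in kctd15 minus lacZ, which was not called (SE 0.43, limma adjusted p = 0.237). With wnt3a and chordin it differed by -2.64, an interaction of -3.62 (SE 0.60, limma adjusted p = 0.0232). Its lacZ level was 5.54 ± 1.11 (SD, n = 3), and whether that leaves room for a fall was not tested. Dlx5.L rose by 1.14 without wnt3a and chordin (limma adjusted p = 0.00992) and fell with them, an interaction of -2.70 (SE 0.30, limma adjusted p = 0.00456). Dlx6.L and dlx3.L had interactions of -4.72 (SE 0.72, limma adjusted p = 0.0154) and -1.56 (SE 0.30, limma adjusted p = 0.0397). For sox9.S the interaction of -4.24 (SE 0.97) missed the threshold (limma adjusted p = 0.0732, and 0.0159 with the block), and for snai2.L it was -1.32 (SE 1.15, limma adjusted p = 0.806).

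**Figure D5:**
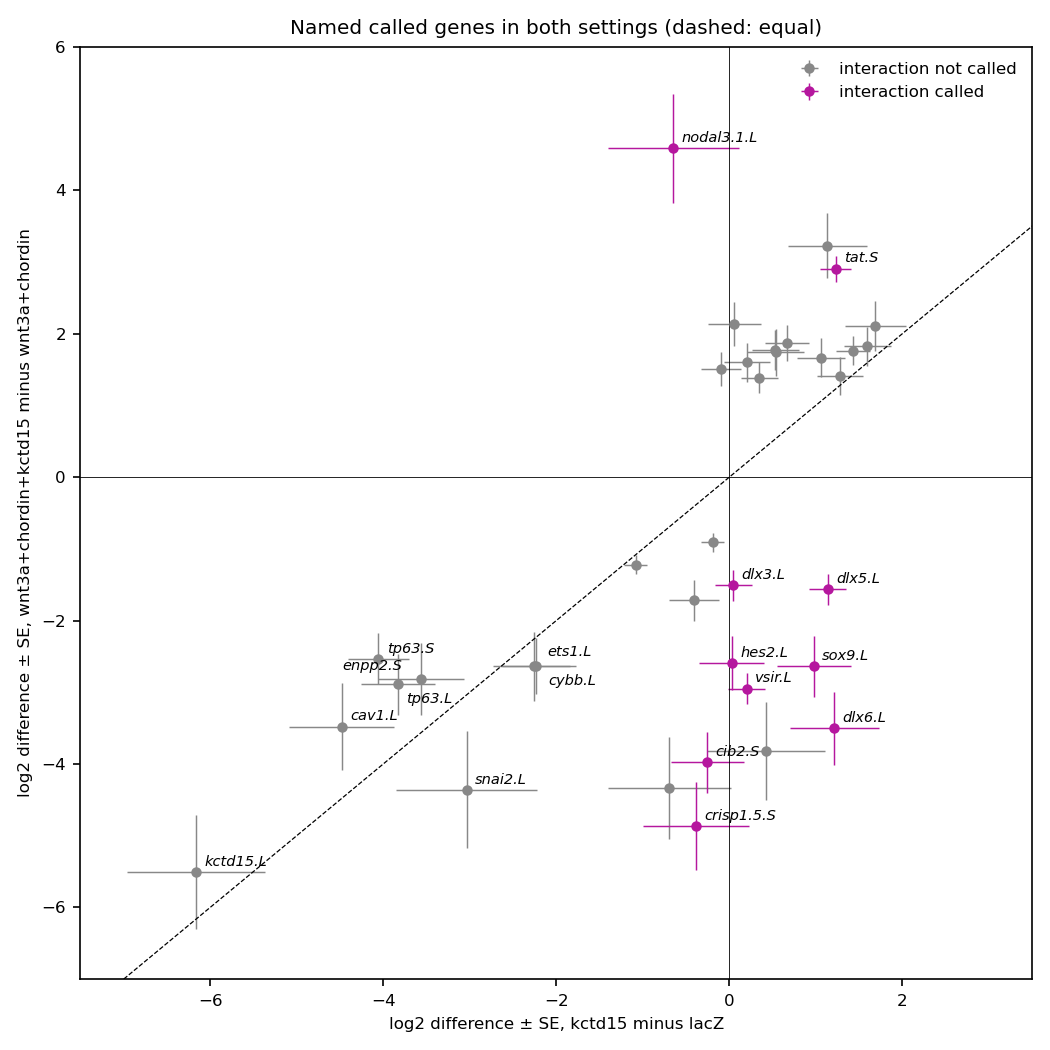
Log2 difference with its standard error for the 36 named called genes in caps without wnt3a and chordin (horizontal, kctd15 minus lacZ) and with them (vertical, wnt3a+chordin+kctd15 minus wnt3a+chordin). The 10 genes with a called interaction (magenta) lie away from the dashed line of equality, for example dlx5.L at 1.14 and -1.56; tp63.L, enpp2.S and cav1.L lie near it.

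Xenopus laevis carries homeologs of many genes, the .L and .S copies from an ancient genome doubling. For 34 called genes the other copy was on the array, and it differed in the same direction in 28, being called as well in 4, the pairs of sox9 and tp63. Copies that went their own way included cav1.S, at 0.38 (SE 0.53) beside -3.48 for cav1.L, and enpp2.L, at 0.45 (SE 0.40) beside -2.81 for enpp2.S. These copies were dim, at 5.41 and 4.60 in wnt3a+chordin caps. Brighter copies did so too. Hpgds.S, at 9.86 in those caps, differed by -0.02 beside 2.11 for hpgds.L, and nt5dc2.L, at 12.83, by 0.06 beside -0.84 for nt5dc2.S. For atp12a.L the other copy differed by 0.06 at a level of 3.95 in wnt3a+chordin+kctd15 caps, against 7.43 for atp12a.L. Of 36 further probe sets of 23 called genes, 34 differed in the same direction and 16 were called.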

How the data were processed

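Biotin-labelled RNA of 12 samples, made by in vitro transcription per the labels' protocols, was read on 1 array each. The authors deposited 1 log2 value per probe set and array, and Partek is named in the submitters' processing notes. Its version and its background, summarisation and normalization settings are not named in those sources. Values ran from 2.378 to 15.576. No scanner files were used, so precision is limited by the 3 arrays per group.

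Of 32635 probe sets, 64 reporters and 96 Affymetrix controls were set aside. Of the 32475 tested, 15495 had 1 symbol in the platform annotation (15384 updated through their gene identifiers to assembly 10.1), 279 had several and 16701 had none. All 12 arrays were fitted with 4 group means in limma 3.58.1 (R 4.3.3), with two-sided p-values adjusted by Benjamini and Hochberg over all tested probe sets. The threshold was 0.05. The fit was tested on simulated data.

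Named genes are the injected genes, up to 15 called genes per direction with the largest difference and separate groups, and per list up to 4 called members or else the member with the smallest p, on the probe set with the highest mean per gene. The members and the 28 lists were chosen with earlier results of these data known. Arrays with the same replicate number, which stands in the sample titles, deviated together from their group means (r of 0.182 to 0.706 over 18 pairs). The 36 pairs of different numbers gave r of -0.511 to 0.103. This is no separate evidence, because deviations from a group mean cancel within the group. The fit with this block is given where it changes a call between the compared groups or the interaction of a named called gene. Alternatives were the block, other scalings, array weights, a variance trend, dim probe sets left out, 1 probe set per gene, only the 6 arrays, and arrays or replicates left out. Leaving out wnt3a+chordin replicate 1 and wnt3a+chordin+kctd15 replicate 2, or replicate 1 of both groups, was chosen after seeing the data. No sequences are shown.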

Additional observations from a re-analysis of the deposited data

Results flagged for a closer look

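In 10 of the 36 named called genes the effect of kctd15 differed between caps with and without wnt3a and chordin by a test of the difference itself (limma's interaction, adjusted p under 0.05), which called 1.14% of all probe sets. With the replicate block the interaction was also called for sox9.S, kit.L, igf2.S and hbg1.L (limma adjusted p = 0.0159, 0.0386, 0.0379 and 0.0348). The 36 were chosen by the difference that enters the interaction, so their share is not read against that background. The value given is the log2 effect with wnt3a and chordin minus the effect without. It was -4.72 for dlx6.L, -4.48 for crisp1.5.S, -3.73 for cib2.S and -3.62 for sox9.L. It was -3.15 for vsir.L, -2.70 for dlx5.L, -2.63 for hes2.L and -1.56 for dlx3.L. It was above 0 in tat.S, at 1.68, and nodal3.1.L, at 5.23. Crisp1.5.S, cib2.S, vsir.L, hes2.L and sox9.L were at 4.55, 4.18, 4.51, 5.37 and 5.54 in lacZ caps. They differed by -0.39, -0.25, 0.20, 0.03 and 0.98 in kctd15 minus lacZ. Whether these low levels leave room for a fall in those caps was not tested.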

How the results depend on the processing

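The 210 probe sets called (46 higher, 164 lower) became 212 with quantile normalization, 206 with centred arrays, 196 with array weights and 222 with a variance trend. They became 443 (152 and 291) with the replicate block, 49 (3 and 46) when the 6 arrays were fitted alone, 136 (104 lower) without dim probe sets, 88 (24 and 64) on 1 probe set per gene, where fewer were tested, and 122 (64 lower) without wnt3a+chordin replicate 1 and wnt3a+chordin+kctd15 replicate 2 (a pair below). Without replicate 1 of both groups they became 40 (10 and 30). With arrays or replicate numbers left out, the count ran from 6 to 200, higher from 1 to 74 and lower from 4 to 173. The interaction's 371 became 1063 with the block, 202 without dim probe sets, 168 on 1 probe set per gene, 107 without the pair and 60 without replicate 1 of both groups, and ran from 0 to 599 with arrays left out. The 0 was without replicate 1 (limma, 2716 at an unadjusted p under 0.05). Of the 36 named called genes 0 changed direction under any alternative. With the block 35 kept their call, ets1.L lost it, 3 named genes gained it (agr2.S, pdgfra.L and gata6.L), and no other named call changed. Only 8 kept it on the 6 arrays alone, 13 without the pair, 5 without replicate 1 of both groups, and 6 with each single array left out (crisp1.5.S, cib2.S, vsir.L, itga5.S, tat.S and slc43a1.L). Without replicate 1, 2 or 3 of all 4 groups, 2, 13 and 4 named genes kept their call. Chrd.1.S, uncalled at -0.08, turned to 0.64 without replicate 3 and, with single arrays left out, to between -0.84 and 0.31, above 0 in 4 of 6. Wnt3a.S, uncalled at -0.17, turned to 0.12 without wnt3a+chordin+kctd15 replicate 3, with single arrays left out ranging from -0.32 to 0.12. The causes were not tested.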
